A study of Homo sapiens with 22 samples.

Results

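The transcripts of the autophagy machinery and its cargo receptors were followed in LUHMES cells, a conditionally immortalised line from human embryonic mesencephalon that can be differentiated into neurons. Members were taken by symbol: 18 genes carried an ATG name and 25 were named outright, which gave 43 of the 34679 genes in the count table. All 43 passed the low-count filter and were among the 16601 genes tested. The differentiated cells were either wild type or overexpressed alpha-synuclein, the protein that aggregates in Parkinson's disease. Models of that disease were made with 6-OHDA, a dopamine analogue that produces reactive oxygen species. The 22 libraries of polyadenylated RNA fell into 6 groups: alpha-synuclein cells with 6-OHDA and quercetin (3), alpha-synuclein cells with 6-OHDA and rutin (3), alpha-synuclein cells with 6-OHDA (4), untreated alpha-synuclein cells (4), wild-type cells with 6-OHDA (4) and untreated wild-type cells (4). Below, "treated" means 6-OHDA without a flavonoid. The sources used here give no doses, times, promoter of the alpha-synuclein construct or number of clones. Nothing states that replicates came from separate cultures, and the p-values therefore cover no more than the spread among these libraries, which may be technical.

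Autophagy wraps cytoplasm in a double membrane and delivers it to the lysosome. The ULK kinase complex starts the process, the class III PI3-kinase complex marks the membrane with PI3P, and ATG9 vesicles with ATG2 lipid-transfer proteins let it grow. An enzyme cascade resembling ubiquitination then couples ATG8 proteins, the LC3 and GABARAP families, to lipid in that membrane. Cargo receptors such as p62, encoded by SQSTM1, bind ubiquitinated cargo on one side and ATG8 proteins on the other, and the kinase TBK1 phosphorylates several of them. In neurons the pathway clears aggregated proteins, alpha-synuclein among them, and damaged mitochondria. SQSTM1 is a known target of the oxidative-stress factor NRF2, and many lysosomal genes are known targets of TFEB. A transcript level does not report autophagic flux.

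Libraries held 1.87 to 20.67 M counts (M, mega), and 4 of them held fewer than 3 M: treated wild-type replicates 3 and 4, treated alpha-synuclein replicate 2 and rutin replicate 3. In these libraries 3 counts, taken as the floor, equalled 0.168 to 1.49 CPM (counts for each 1 M of a TMM-scaled library). On the first principal component, which took 40.8% of the variance, treated alpha-synuclein replicate 4 lay at -1.47, between the untreated libraries (-76.4 to -53.5) and all other libraries with 6-OHDA (35.8 to 45.3). By their names, 12 libraries ran on lane 1 and 10 on lane 2. All alpha-synuclein libraries with 6-OHDA were on lane 2 and all others on lane 1, so the effect of 6-OHDA in alpha-synuclein cells, that of alpha-synuclein under 6-OHDA and the interaction cannot be told apart from lane.

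Short windows before the RefSeq start sites (RefSeq on GRCh38.p14) are shown for members whose transcripts moved together under 6-OHDA or with a motif there. Of the 43 members 38 had such a window. All 30 bases shown for GABARAPL1, TBK1 and MAP1LC3B lie within exons annotated by GENCODE 29. The SQSTM1 stretch precedes its RefSeq start number 3, which lies inside the span of the gene. Capitals mark a match and all other bases are in lower case, each line 5′ to 3′ on the strand of its gene.
SQSTM1, chr5:179820707-179820758, plus strand, 198 to 147 bases before its start: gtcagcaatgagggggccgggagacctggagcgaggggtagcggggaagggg
GABARAPL1, chr12:10212836-10212865, plus strand: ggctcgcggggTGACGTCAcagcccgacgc
TBK1, chr12:64452077-64452106, plus strand: ccggccgtcggtCACGTGgcctccggccag
CALCOCO2, chr17:48830880-48830939, plus strand: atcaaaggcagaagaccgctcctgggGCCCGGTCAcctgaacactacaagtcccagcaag
MAP1LC3B, chr16:87392279-87392308, plus strand: cgcgagtcaccTGACCAGGCtgcgggctga
ATG9B, chr7:151024520-151024579, minus strand: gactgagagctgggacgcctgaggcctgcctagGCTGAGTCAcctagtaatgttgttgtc

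The 250 bases before each start were searched on both strands. The antioxidant response element core TGACNNNGC, which NRF2 dimers bind, lay in 5 of the 48 windows of members (10.4%) and in 10.9% of all 35116 windows; ATG101, ATG9B, CALCOCO2 and MAP1LC3B held it. In ATG9B it overlaps the AP-1 letters TGANTCA, which 3 windows of members (6.25%) and 6.57% of all windows held. The E-box CACGTG, the core of the motif that TFEB binds, was in 3 windows (6.25%; ATG14, ATG3 and TBK1) and in 6.34% of all windows. TGATGNAA, a composite site bound by ATF4 and C/EBP dimers, was in no window of a member and in 3.14% of all windows. The cAMP response element TGACGTCA, chosen after the windows had been read, was in the GABARAPL1 window and in 1.65% of all windows. The SQSTM1 stretch holds no searched motif. Apart from TGATGNAA, which members lacked, these shares lie close to those of all windows. ATG9B has 2 overlapping windows, and its match is counted in each. A match is a description of letters, not a site.

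Per kilobase of exon, GABARAP had the highest level of the 43 genes without 6-OHDA, and SQSTM1 had the highest with it. In treated alpha-synuclein cells SQSTM1 stood at 165 ± 29.9 CPM per kb, ahead of MAP1LC3B at 122.3 ± 12.4 and GABARAP at 117 ± 25.9, which overlapped within their SD (n = 4). In untreated alpha-synuclein cells GABARAP stood at 184 ± 5.33 CPM per kb, MAP1LC3B at 114.9 ± 10.1 and SQSTM1, in rank 6, at 38.4 ± 3.21 (SD, n = 4). In treated wild-type cells SQSTM1 stood at 225 ± 6.92 CPM per kb, GABARAP at 120.2 ± 7.43 and MAP1LC3B at 102.8 ± 4.25 (SD, n = 4). In untreated wild-type cells GABARAP stood at 168 ± 15.9 CPM per kb, MAP1LC3B at 117 ± 6.87 and SQSTM1, in rank 8, at 30.5 ± 2.23 (SD, n = 4). PIK3R4 was the lowest member in every group, at 0.203 ± 0.155 and 0.284 ± 0.0623 CPM per kb in treated and untreated alpha-synuclein cells and at 0.138 ± 0.177 and 0.589 ± 0.153 CPM per kb in treated and untreated wild-type cells. Together the 43 genes took 0.340% to 0.379% of counts in treated alpha-synuclein libraries and 0.366% to 0.374% in treated wild-type libraries. In the 8 untreated libraries they took 0.251% to 0.272%. These are shares of total counts without TMM. On that scale the median log2 fold change with 6-OHDA over all tested genes was 0.33 in alpha-synuclein and 0.35 in wild-type cells. That of the members was 0.33 and 0.26.

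**Figure D1:**
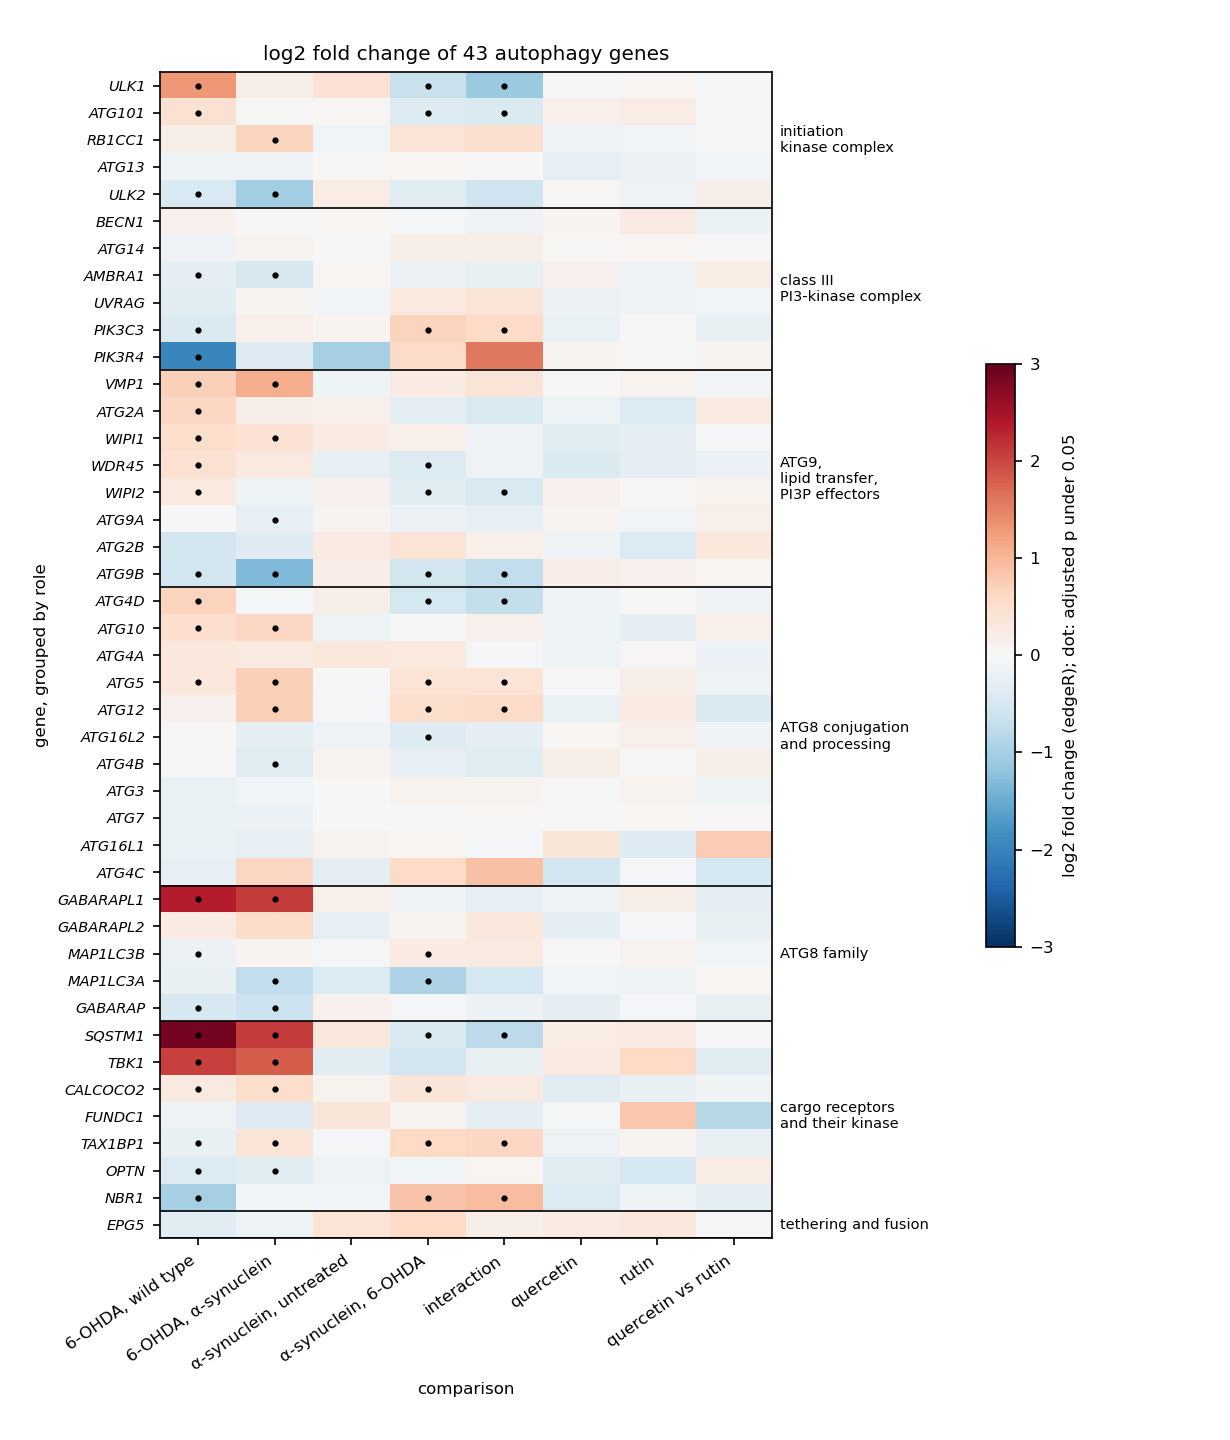
Heat map of the log2 fold change of each of the 43 genes (rows, grouped by role) in 8 comparisons (columns); red is higher, blue is lower, and a dot marks an adjusted p under 0.05. SQSTM1, GABARAPL1 and TBK1 stand out under 6-OHDA in both genotypes, and no dot falls on alpha-synuclein in untreated cells, quercetin, rutin or quercetin against rutin.

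The first question was what 6-OHDA did to these transcripts. In alpha-synuclein cells 11 of the 43 members were called higher and 8 lower, where 22.9% and 24.2% of all tested genes were called (quasi-likelihood test of edgeR, Benjamini-Hochberg adjustment over all tested genes, adjusted p under 0.05). In wild-type cells 14 were called higher and 10 lower, where 25.8% and 26.2% of all genes were. The share of members called was thus 44.2% in alpha-synuclein cells and 55.8% in wild-type cells, close to the 47.1% and 52% of all tested genes. Their median log2 fold change was 0.03 in alpha-synuclein cells and -0.01 in wild-type cells, against 0.05 and 0.07 over all tested genes. Under TMM scaling the set as a whole did not move one way. A few members moved far, at shares near or below those of all tested genes. With total counts in place of TMM the median of members was 0.33 and 0.26, against 0.33 and 0.35 over all tested genes. Calls of at least 2-fold went to 4 higher and 2 lower members in alpha-synuclein cells (9.19% and 5.12% of all genes) and to 4 higher and 1 lower member in wild-type cells (12.2% and 8.05% of all genes). In bulk RNA, fewer cells of a type and less RNA per cell cannot be told apart. Without treated alpha-synuclein replicate 4, alpha-synuclein cells gave 12 higher and 9 lower, with 8520 calls over all genes in place of 7820.

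Set side by side, 8 members rose in both genotypes (18.6%, against 13.9% of all tested genes): SQSTM1, GABARAPL1, TBK1, VMP1, WIPI1, ATG5, ATG10 and CALCOCO2. Another 5 fell in both (11.6%, against 15.9%): ULK2, ATG9B, GABARAP, AMBRA1 and OPTN. TAX1BP1 was called higher in alpha-synuclein and lower in wild-type cells, as were 0.554% of all tested genes, and a further 1.08% of all tested genes were called the other way round. The pair of comparisons shares no library.

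The summed level of the 9 neuronal markers, all detected in every group, was lower in treated libraries: 4710 to 6405 CPM in treated and 8613 to 10875 CPM in untreated alpha-synuclein libraries, and 4494 to 4935 CPM in treated and 10494 to 11607 CPM in untreated wild-type libraries. Single markers departed from the sum: TUBB3 averaged 167 CPM in treated and 132 CPM in untreated alpha-synuclein cells, and 170.2 CPM in treated and 110.1 CPM in untreated wild-type cells. In alpha-synuclein cells SNAP25 averaged 90.4 CPM with and 92.7 CPM without 6-OHDA, and SYT1 30.1 CPM with and 26.9 CPM without. The 10 dopaminergic markers summed to 132 to 166 CPM in treated and 477 to 632 CPM in untreated alpha-synuclein libraries, and to 234 to 249 CPM in treated and 545 to 641 CPM in untreated wild-type libraries; ALDH1A1 and PITX3 were at or near 0. The 6 oligodendrocyte-lineage markers summed to 40.7 to 63.9 CPM in treated and 122.5 to 158 CPM in untreated alpha-synuclein libraries, and to 50.2 to 83.6 CPM in treated and 121.95 to 138 CPM in untreated wild-type libraries. The 6 cycling-progenitor markers analysed here summed to 12.9 to 48.3 CPM in treated and 59.0 to 107.8 CPM in untreated alpha-synuclein libraries. The 7 microglial markers summed to 6.36 to 12.9 CPM in treated and 5.03 to 6.23 CPM in untreated alpha-synuclein libraries, with C1QA at 0 in both groups. Only 2 of the 7 averaged above 1 CPM in either group, and 1 in treated and 3 in untreated libraries had no count. The part of cell composition in the results was not tested.

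Counts by role below stand beside the same shares of all tested genes, 22.9% higher and 24.2% lower in alpha-synuclein cells and 25.8% and 26.2% in wild-type cells, and groups this small were not tested against them. Among the 7 cargo receptors and their kinase, 4 rose and 1 fell in alpha-synuclein cells, and 3 rose and 3 fell in wild-type cells. SQSTM1 encodes p62, which gathers ubiquitinated proteins into bodies. It had 671, 596, 606 and 427 CPM in treated alpha-synuclein libraries, against 150.3, 128, 129.8 and 127 CPM in untreated ones. In wild-type libraries it had 786, 780.4, 810.1 and 751 CPM with 6-OHDA, against 109, 96.7, 104 and 114.7 CPM without. Every treated library lay above every untreated one, and treated alpha-synuclein replicate 4 was the lowest of the treated. The log2 fold change was 2.11 ± 0.10 (SE; 4.30-fold, adjusted p = 1.68e-12) in alpha-synuclein cells. In wild-type cells it was 2.88 ± 0.11 (7.36-fold, adjusted p = 1.11e-14). SQSTM1 (chr5:179806398-179838078, plus strand, GRCh38) shares 1384 exon bases with MRNIP on the other strand, and the sources used here do not say whether the counting used strand. MRNIP itself changed by -0.11 in alpha-synuclein cells and -0.02 in wild-type cells (log2).

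TBK1, the kinase that phosphorylates p62, optineurin and NDP52, was among the scarcest members. It had 7.31, 4.67, 4.70 and 4.65 CPM in treated alpha-synuclein libraries, against 1.29, 1.58, 1.29 and 1.77 CPM in untreated ones. In wild-type libraries it had 8.44, 9.68, 6.05 and 6.96 CPM with 6-OHDA, against 3.10, 1.46, 1.87 and 1.30 CPM without. All treated libraries stood above all untreated ones. TBK1 rose by 1.83 ± 0.25 (log2; 3.54-fold, adjusted p = 4.65e-06) in alpha-synuclein cells and by 2.06 ± 0.27 (4.16-fold, adjusted p = 1.57e-06) in wild-type cells.

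NBR1, a receptor that works beside p62, behaved differently by genotype. It had 83.4, 103.4, 92.6 and 119.8 CPM in treated alpha-synuclein libraries, against 95.2, 132, 97.4 and 95.6 CPM in untreated ones. With 6-OHDA it had 56.3, 57.5, 48.8 and 59.7 CPM in wild-type libraries, against 108, 94.5, 116.4 and 122.4 CPM without. The alpha-synuclein groups overlapped, whereas the wild-type groups were wholly apart. Its log2 fold change was -0.07 ± 0.12 (adjusted p = 0.647) in alpha-synuclein cells and -0.99 ± 0.13 (1.99-fold lower, adjusted p = 8.79e-07) in wild-type cells.

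TAX1BP1, a receptor for ubiquitinated cargo and aggregates, had 162, 167, 178 and 204 CPM in treated alpha-synuclein libraries, against 123.9, 154, 135 and 129 CPM in untreated ones. Wild-type libraries had 126, 113, 112 and 123.3 CPM with 6-OHDA, against 129, 138, 139 and 149 CPM without. Neither pair of groups overlapped, and the directions were opposite. The changes were 0.40 ± 0.08 (log2, adjusted p = 0.000374) in alpha-synuclein cells and -0.22 ± 0.08 (adjusted p = 0.0291) in wild-type cells. The wild-type fall was lost in 4 of 16 alternatives; without untreated wild-type replicate 4 it was -0.18 (adjusted p = 0.0982), and with total-count scaling in place of TMM it turned to 0.05. That scaling moved the median of all genes by 0.27 in wild-type and 0.28 in alpha-synuclein cells.

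CALCOCO2, which encodes the xenophagy and mitophagy receptor NDP52, rose by 0.53 ± 0.10 (log2, adjusted p = 0.000185) in alpha-synuclein cells and by 0.27 ± 0.11 (adjusted p = 0.0367) in wild-type cells. Its levels were 79.9, 92.96, 85.5 and 121 CPM in treated alpha-synuclein libraries, against 61.6, 70.3, 63.2 and 68.7 CPM in untreated ones. Wild-type libraries had 75.0, 76.2, 70.2 and 74.6 CPM with 6-OHDA, against 64.0, 53.5, 66.9 and 61.1 CPM without. No group overlapped its counterpart, but the wild-type call was lost without untreated replicate 2 or 4 or treated replicate 1, 2 or 4 (0.21 to 0.27, adjusted p = 0.0571 to 0.119).

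OPTN, the mitophagy receptor optineurin, fell by 0.35 (adjusted p = 0.0413) in alpha-synuclein cells and by 0.42 (adjusted p = 0.018) in wild-type cells. Treated alpha-synuclein replicate 4 had 85.2 CPM of OPTN, where the other 3 had 45.9 to 58.3 CPM and untreated ones 71.1 to 86.4 CPM. The OPTN call in alpha-synuclein cells was lost in 9 of 17 alternatives, among them without untreated replicate 1, 2 or 3 or treated replicate 1, 2 or 3 (-0.37 to -0.25, adjusted p = 0.0511 to 0.126). Without treated alpha-synuclein replicate 4 it was -0.57 (adjusted p = 0.000283). Total-count scaling gave OPTN -0.08 (adjusted p = 0.598) in alpha-synuclein and -0.14 (adjusted p = 0.322) in wild-type cells. FUNDC1, a mitophagy receptor of the outer mitochondrial membrane, ranged from 0 to 9.80 CPM over all 22 libraries. It gave -0.38 ± 0.63 in alpha-synuclein and -0.11 ± 0.71 in wild-type cells, and changes of 2-fold were not detectable with SEs this wide.

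**Figure D2:**
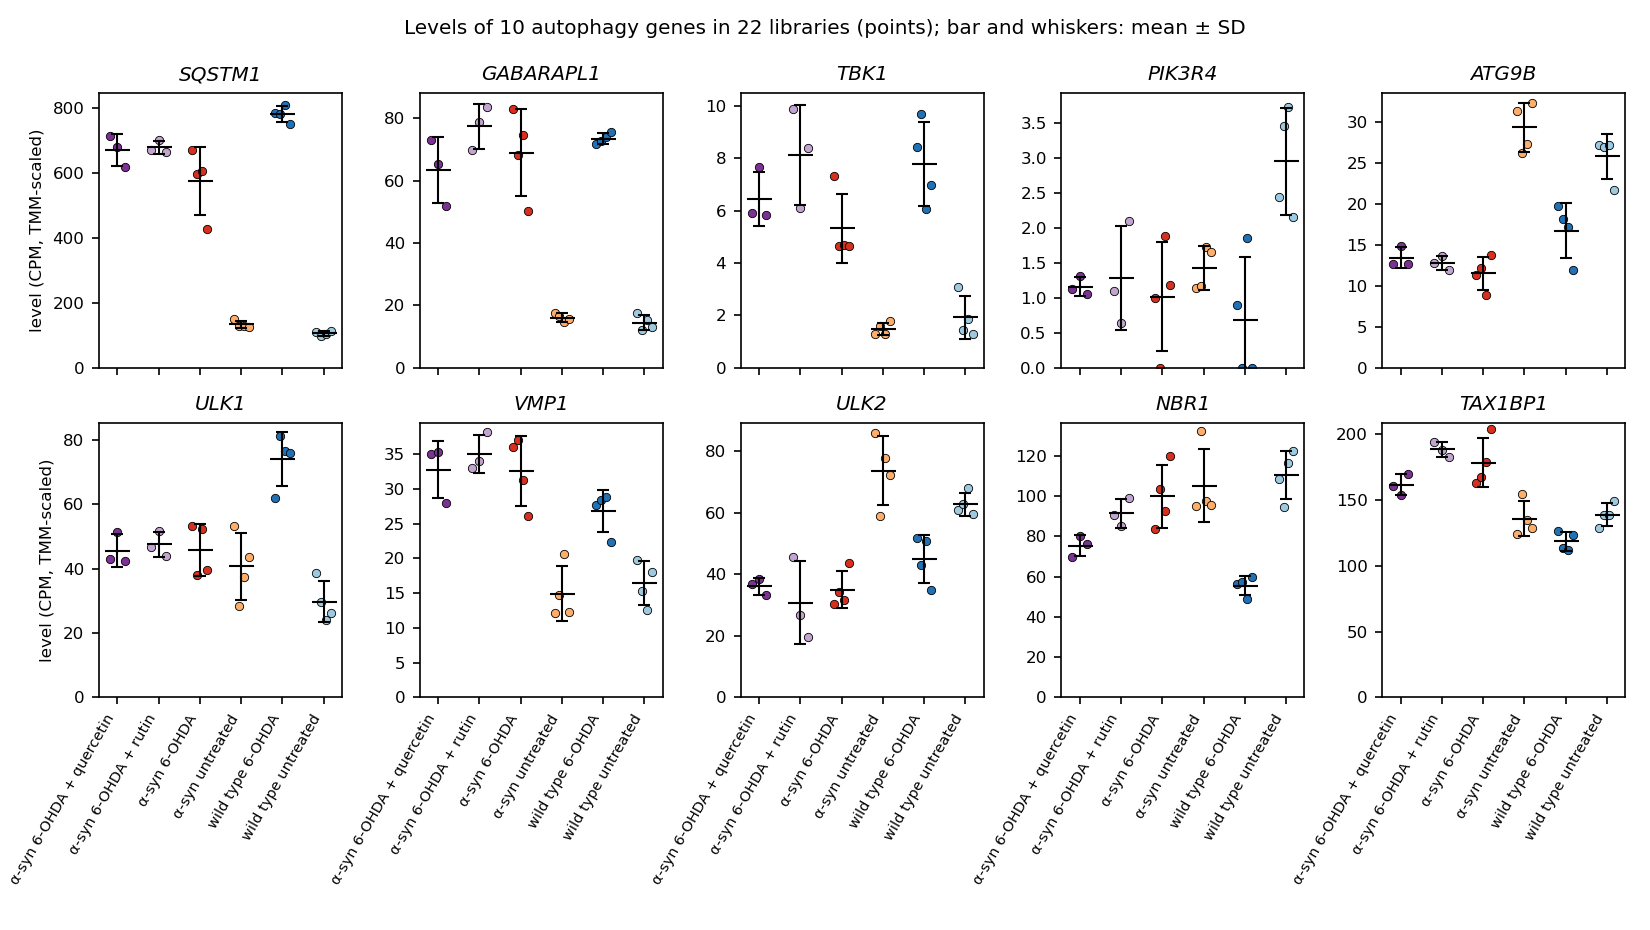
Level in CPM (linear axis from 0) of 10 members in each of the 22 libraries (points), by group, with bar and whiskers for the mean and SD. SQSTM1 lies between 427 and 810.1 CPM in treated libraries without a flavonoid and between 96.7 and 150.3 CPM in untreated ones, while the ULK1 and NBR1 groups of alpha-synuclein cells without a flavonoid overlap.

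Within the ATG8 family, GABARAPL1 rose and its relative GABARAP fell in both genotypes. GABARAPL1, an ATG8 protein known as a FOXO target, had 82.9, 68.2, 74.7 and 50.1 CPM in treated alpha-synuclein libraries, against 17.7, 16.5, 14.6 and 15.5 CPM in untreated ones. In wild-type libraries it had 71.8, 72.6, 73.9 and 75.6 CPM with 6-OHDA, against 17.5, 12.0, 15.3 and 13.0 CPM without. Treated and untreated libraries were far apart, and treated alpha-synuclein replicate 4 was again the lowest treated one. GABARAPL1 (chr12:10212458-10223130, plus strand) rose by 2.10 ± 0.14 (log2; 4.28-fold, adjusted p = 1.98e-10) in alpha-synuclein cells and by 2.35 ± 0.15 (5.08-fold, adjusted p = 5.8e-11) in wild-type cells. Its near copy GABARAPL3 held 0 to 2 counts per library.

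GABARAP had 220.0, 244, 244 and 351 CPM in treated alpha-synuclein libraries, against 409, 405, 432 and 419 CPM in untreated ones. It had 266, 266, 297 and 259.6 CPM in treated wild-type libraries, against 345, 430.2, 379.7 and 367 CPM in untreated ones. No treated library reached an untreated one of its genotype. The changes were -0.65 ± 0.11 (log2, adjusted p = 3.2e-05) in alpha-synuclein cells and -0.48 ± 0.11 (adjusted p = 0.000651) in wild-type cells. MAP1LC3B, the LC3 protein most used as an autophagosome marker, gave 0.09 ± 0.07 (adjusted p = 0.329) in alpha-synuclein cells and -0.19 ± 0.08 (adjusted p = 0.0436) in wild-type cells; the wild-type call was lost in 7 of 17 alternatives, among them without untreated replicate 2, 3 or 4 or treated replicate 2 (-0.19 to -0.16, adjusted p = 0.0517 to 0.112), and turned to 0.09 with total-count scaling. MAP1LC3A, another LC3 gene, fell by 0.74 (adjusted p = 0.045) in alpha-synuclein cells, a call lost in 11 of 17 alternatives, among them without untreated replicate 1, 2 or 3 or treated replicate 1, 2 or 3 (-0.80 to -0.61, adjusted p = 0.0541 to 0.129). GABARAPL2 gave 0.56 ± 0.23 (adjusted p = 0.0508) in alpha-synuclein cells and 0.24 (adjusted p = 0.447) in wild-type cells.

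Of the 5 genes of the initiation kinase complex, 1 rose and 1 fell in alpha-synuclein cells, and 2 rose and 1 fell in wild-type cells. ULK1, the kinase that mTORC1 restrains and AMPK activates, had 53.3, 38.04, 52.4 and 39.6 CPM in treated alpha-synuclein libraries, against 53.3, 28.5, 37.5 and 43.6 CPM in untreated ones. In wild-type libraries it had 62.0, 81.4, 76.7 and 76.1 CPM with 6-OHDA, against 38.7, 29.7, 24.1 and 26.4 CPM without. The alpha-synuclein groups overlapped and the wild-type groups did not. ULK1 (chr12:131894651-131923167, plus strand) gave 0.18 ± 0.17 (log2, adjusted p = 0.385) in alpha-synuclein cells and rose by 1.30 ± 0.17 (2.47-fold, adjusted p = 1.83e-06) in wild-type cells.

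ULK2, its paralogous kinase, had 30.4, 34.1, 31.5 and 43.6 CPM in treated alpha-synuclein libraries, against 85.7, 58.9, 77.6 and 72.2 CPM in untreated ones. It had 51.7, 43.0, 50.7 and 34.8 CPM in treated wild-type libraries, against 60.8, 62.8, 68.0 and 59.6 CPM in untreated ones. Treated libraries were below untreated ones in both genotypes. ULK2 fell by 1.05 (2.08-fold, adjusted p = 4.5e-05) in alpha-synuclein cells and by 0.46 (1.37-fold, adjusted p = 0.0393) in wild-type cells. The wild-type call was lost in 8 of 16 alternatives (adjusted p = 0.0515 to 0.385), among them without any 1 untreated wild-type replicate and without treated wild-type replicate 2 or 4. RB1CC1, which encodes the scaffold FIP200, rose by 0.66 ± 0.16 (adjusted p = 0.00193) in alpha-synuclein cells and gave 0.18 ± 0.17 (adjusted p = 0.378) in wild-type cells. ATG101, which stabilises ATG13, gave 0.03 (adjusted p = 0.802) in alpha-synuclein cells and rose by 0.46 ± 0.10 (adjusted p = 0.000679) in wild-type cells. ATG13, the adaptor of the complex, passed in neither genotype (-0.12 and -0.14).

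In the class III PI3-kinase complex 1 of 6 genes fell in alpha-synuclein cells and 3 fell in wild-type cells, and none was called higher, where 22.9% and 25.8% of all tested genes were. PIK3C3, the catalytic subunit VPS34, had 99.7, 80.0, 87.4 and 89.9 CPM in treated alpha-synuclein libraries, against 76.3, 91.4, 73.6 and 82.2 CPM in untreated ones. It had 62.5, 54.4, 53.9 and 52.2 CPM in treated wild-type libraries, against 71.5, 67.1, 80.7 and 83.7 CPM in untreated ones. Only the wild-type groups were apart. The change was 0.15 (adjusted p = 0.226) in alpha-synuclein cells and -0.43 ± 0.10 (adjusted p = 0.00155) in wild-type cells, where total-count scaling gave -0.15 (adjusted p = 0.232).

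PIK3R4, the regulatory subunit VPS15, had 0.997, 0, 1.88 and 1.19 CPM in treated alpha-synuclein libraries, against 1.14, 1.17, 1.73 and 1.66 CPM in untreated ones. It had 0.904, 0, 1.86 and 0 CPM in treated wild-type libraries, from 12, 0, 4 and 0 counts, against 2.45, 3.47, 3.74 and 2.16 CPM in untreated ones. The wild-type groups did not overlap, but the treated ones rest on very few counts. PIK3R4 fell by 1.97 (3.91-fold, adjusted p = 0.00572) in wild-type cells and gave -0.39 ± 0.48 (adjusted p = 0.533) in alpha-synuclein cells. AMBRA1, a regulator that binds BECN1, fell by 0.49 (adjusted p = 3.04e-06) in alpha-synuclein cells and by 0.26 (adjusted p = 0.0025) in wild-type cells, the second turning to 0.02 with total-count scaling. BECN1, the scaffold Beclin 1, gave 0.02 in alpha-synuclein and 0.13 in wild-type cells, and ATG14 and UVRAG, its alternative partners, passed in neither genotype.

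Of the 8 genes for ATG9, lipid transfer and PI3P binding, 2 rose and 2 fell in alpha-synuclein cells, and 5 rose and 1 fell in wild-type cells. VMP1, an ER scramblase needed for autophagosome formation, had 36.1, 36.97, 31.3 and 26.1 CPM in treated alpha-synuclein libraries, against 12.1, 14.7, 20.6 and 12.2 CPM in untreated ones. It had 27.6, 28.4, 28.8 and 22.4 CPM in treated wild-type libraries, against 19.8, 15.3, 12.5 and 18.1 CPM in untreated ones. Every treated library exceeded every untreated one. VMP1 rose by 1.10 ± 0.17 (log2; 2.14-fold, adjusted p = 1.33e-05) in alpha-synuclein cells and by 0.71 ± 0.18 (1.64-fold, adjusted p = 0.00198) in wild-type cells.

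ATG9B, the second ATG9 scramblase, had 11.3, 12.2, 8.93 and 13.8 CPM in treated alpha-synuclein libraries, against 31.4, 26.2, 27.4 and 32.4 CPM in untreated ones. It had 19.7, 18.1, 17.2 and 11.9 CPM in treated wild-type libraries, against 27.3, 27.0, 27.3 and 21.7 CPM in untreated ones. Treated libraries were lower in both genotypes with no overlap. ATG9B fell by 1.32 (2.49-fold, adjusted p = 1.74e-07) in alpha-synuclein cells and by 0.58 (1.49-fold, adjusted p = 0.00243) in wild-type cells, where total-count scaling gave -0.30 (adjusted p = 0.0799). Its exons share 662 bases with NOS3 on the other strand, which gave -0.22 in alpha-synuclein and -0.40 in wild-type cells, neither called. ATG9A, the widely expressed ATG9 gene, fell by 0.25 (adjusted p = 0.00619) in alpha-synuclein cells, turning to 0.04 with total-count scaling, and gave 0.01 in wild-type cells.

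WIPI1, a PI3P-binding propeller protein, rose by 0.44 ± 0.14 (adjusted p = 0.0114) in alpha-synuclein cells, where leaving out untreated replicates 3 and 4 together gave 0.43 (adjusted p = 0.0706), and by 0.54 ± 0.14 (adjusted p = 0.00374) in wild-type cells. WIPI2, which recruits ATG16L1, gave -0.15 (adjusted p = 0.171) in alpha-synuclein cells and rose by 0.30 ± 0.09 (adjusted p = 0.0109) in wild-type cells, with 0.25 (adjusted p = 0.0629) without treated replicate 2. WDR45, a WIPI protein mutated in a neurodegeneration with brain iron accumulation, gave 0.29 ± 0.13 (adjusted p = 0.0633) in alpha-synuclein cells and rose by 0.45 ± 0.13 (adjusted p = 0.0061) in wild-type cells, with 0.35 (adjusted p = 0.0655) without the libraries under 3 M counts. ATG2A, a lipid-transfer protein, rose by 0.63 ± 0.22 (adjusted p = 0.019) in wild-type cells, a call lost without untreated wild-type replicate 3 (0.49, adjusted p = 0.0706) or treated wild-type replicate 2 (0.40, adjusted p = 0.145). ATG2B, its paralogue, passed in neither genotype, at -0.39 in alpha-synuclein and -0.55 ± 0.25 in wild-type cells.

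In the conjugation cascade 3 of 11 genes rose and 1 fell in alpha-synuclein cells, and 3 rose in wild-type cells. ATG5, which joins ATG12 in the complex that acts as a ligase for ATG8 proteins, had 44.5, 43.4, 45.4 and 47.0 CPM in treated alpha-synuclein libraries, against 27.7, 28.6, 25.4 and 28.0 CPM in untreated ones. In wild-type libraries it had 31.0, 30.2, 35.8 and 40.8 CPM with 6-OHDA, against 31.0, 23.9, 25.2 and 29.1 CPM without. The alpha-synuclein groups were apart and the wild-type groups overlapped. ATG5 rose by 0.72 ± 0.10 (adjusted p = 3.75e-06) in alpha-synuclein cells and by 0.31 ± 0.11 (adjusted p = 0.0204) in wild-type cells, where the call was lost without untreated replicate 2 or 3 or treated replicate 3 or 4 (0.21 to 0.27, adjusted p = 0.0591 to 0.106). Without the libraries under 3 M counts it was 0.13 (adjusted p = 0.373).

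ATG12, the ubiquitin-like partner of ATG5, rose by 0.71 ± 0.14 (adjusted p = 0.000276) in alpha-synuclein cells and gave 0.13 ± 0.15 (adjusted p = 0.489) in wild-type cells. ATG10, the enzyme that couples them, rose by 0.62 ± 0.17 (adjusted p = 0.00466) in alpha-synuclein cells and by 0.50 ± 0.18 (adjusted p = 0.0261) in wild-type cells, a call lost without untreated or treated replicate 1, 2 or 3 (0.41 to 0.47, adjusted p = 0.0538 to 0.119).

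ATG4D, a protease of the family that trims ATG8 proteins, had 37.2, 36.6, 38.5 and 40.0 CPM in treated alpha-synuclein libraries, against 36.005, 41.1, 43.6 and 37.4 CPM in untreated ones. It had 59.0, 57.8, 58.1 and 43.8 CPM in treated wild-type libraries, against 27.6, 42.0, 35.1 and 34.8 CPM in untreated ones. The alpha-synuclein groups overlapped and the wild-type groups did not. Its change was -0.05 (adjusted p = 0.734) in alpha-synuclein cells and 0.66 ± 0.12 (adjusted p = 6.64e-05) in wild-type cells. ATG4B, the main protease of the family, fell by 0.37 (adjusted p = 0.0229) in alpha-synuclein cells, a call lost without untreated replicate 3 or 4 or treated replicate 2 or 3 (-0.36 to -0.29, adjusted p = 0.0506 to 0.0877) and without untreated replicates 3 and 4 together (-0.24, adjusted p = 0.257), and gave -0.01 in wild-type cells. ATG7 and ATG3, the enzymes that activate and transfer ATG8 proteins, passed in neither genotype, and nor did ATG16L1, ATG16L2, ATG4A or ATG4C. EPG5, which tethers autophagosomes to lysosomes, gave -0.15 ± 0.31 in alpha-synuclein and -0.33 ± 0.33 in wild-type cells.

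Other members also share exon bases with neighbours, whose part in the members' values was not tested. On the same strand, ATG9A shares 1833 of its 4210 exon bases with AC068946.2, which rose by 1.63 in alpha-synuclein and by 2.10 in wild-type cells (log2). WDR45 shares 757 with PRAF2, which gave 0.00 in alpha-synuclein cells and rose by 1.12 in wild-type cells, and GABARAP shares 691 with AC120057.2, which had 0 CPM in these groups. On the other strand, PTRH2, which overlaps VMP1, rose by 0.49 in alpha-synuclein and by 0.31 in wild-type cells. AP3S1, which overlaps ATG12, rose by 0.55 in alpha-synuclein cells and gave -0.19 in wild-type cells. THAP4, which overlaps ATG4B, fell by 1.36 in alpha-synuclein cells and gave -0.49 in wild-type cells. FCHSD2, which overlaps ATG16L2, gave -0.14 in alpha-synuclein cells and fell by 1.46 in wild-type cells, and GSKIP, which overlaps ATG2B, rose by 0.39 in alpha-synuclein and by 0.52 in wild-type cells.

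**Figure D3:**
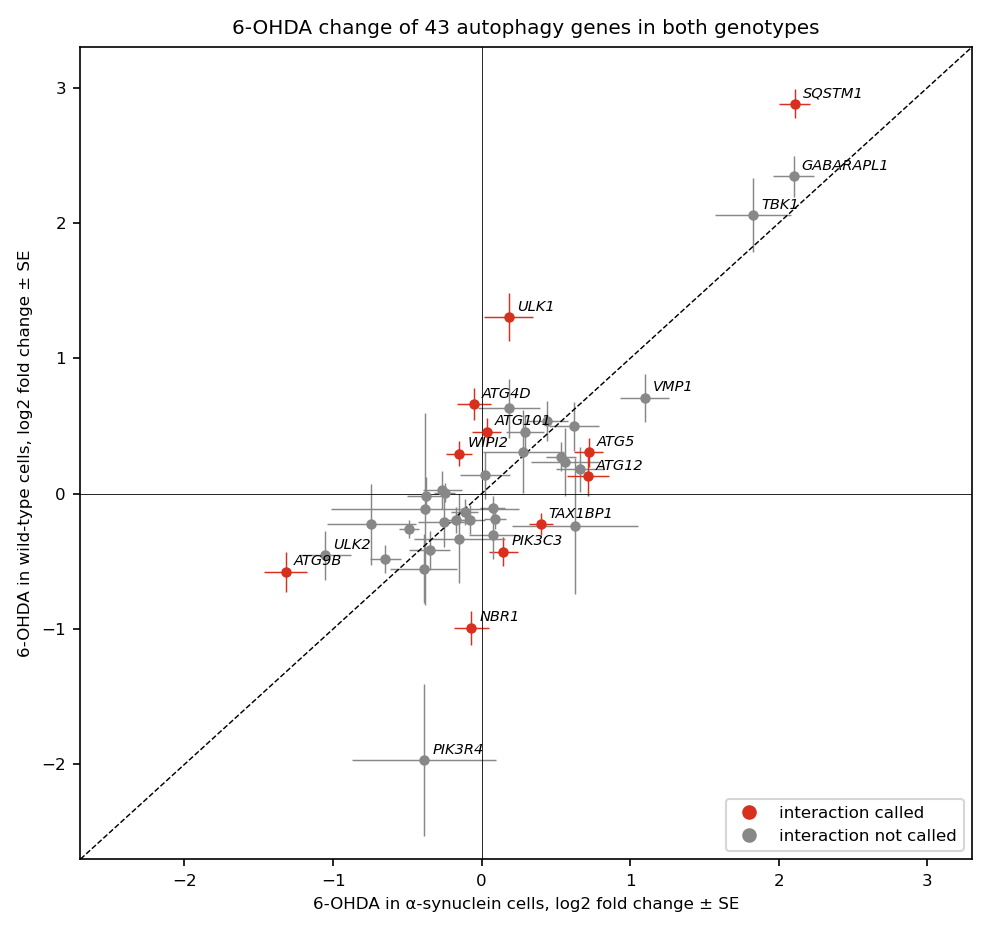
Log2 fold change with 6-OHDA in alpha-synuclein cells (x axis) against wild-type cells (y axis) for the 43 members, with SE bars, the dashed line of equal change, and red points where the interaction passed the test. SQSTM1, ULK1, ATG4D and ATG9B lie above the line, with the higher value in wild-type cells, and NBR1, TAX1BP1 and PIK3C3 lie below it.

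Whether the response differed between genotypes was tested with the interaction, which cannot be told apart from lane. It passed for 5 members with a higher log2 fold change in alpha-synuclein than in wild-type cells and for 6 with a lower one, where 11.2% and 10.5% of all tested genes passed. The share of members, 25.6%, stood beside 21.6% of all genes. The positive differences were those of NBR1 (0.92 ± 0.17, adjusted p = 0.00116), TAX1BP1 (0.62 ± 0.12, adjusted p = 0.00119), PIK3C3 (0.57 ± 0.14, adjusted p = 0.00642), ATG12 (0.58 ± 0.21, adjusted p = 0.048) and ATG5 (0.42 ± 0.15, adjusted p = 0.0444). The negative ones were those of ULK1 (-1.12 ± 0.24, adjusted p = 0.00259), SQSTM1 (-0.77 ± 0.14, adjusted p = 0.00104), ATG9B (-0.74 ± 0.21, adjusted p = 0.0125), ATG4D (-0.71 ± 0.16, adjusted p = 0.00393), WIPI2 (-0.45 ± 0.13, adjusted p = 0.0162) and ATG101 (-0.42 ± 0.14, adjusted p = 0.0353). SQSTM1 rose in both genotypes and by less in alpha-synuclein cells. NBR1 and PIK3C3 fell in wild-type cells and passed in neither direction in alpha-synuclein cells. For GABARAPL1 (-0.25 ± 0.20, adjusted p = 0.427), TBK1 (-0.23 ± 0.38, adjusted p = 0.726) and VMP1 (0.39 ± 0.24, adjusted p = 0.277) the interaction did not pass. The calls of SQSTM1, NBR1, TAX1BP1, PIK3C3, ATG4D and ULK1 held in all 25 alternatives tried. ATG101 lost its call in 17 of them (-0.34 without treated alpha-synuclein replicate 4), ATG5 in 12 (0.35 without untreated wild-type replicate 1), ATG12 in 11 (0.45 without untreated alpha-synuclein replicate 1), WIPI2 in 8 (-0.38 without treated wild-type replicate 2) and ATG9B in 2. ATG9B lost it without treated wild-type replicate 1 (-0.60, adjusted p = 0.058). Without treated alpha-synuclein replicate 4 the interaction gave 3 positive and 8 negative members, with 3533 calls over all genes in place of 3594.

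The direct contrast of genotypes showed no call in untreated cells, whose libraries share a lane, and many under 6-OHDA. Under 6-OHDA genotype cannot be told apart from lane. Without 6-OHDA 0 of the 43 members were called by edgeR's quasi-likelihood test, where 0.651% of all genes were. Unadjusted, 3 members had a p under 0.05 by that test, as did 9.24% of all tested genes. DESeq2 and limma-voom called 0 members as well, where they called 230 and 703 genes. SQSTM1 had 150.3, 128, 129.8 and 127 CPM in untreated alpha-synuclein libraries, against 109, 96.7, 104 and 114.7 CPM in untreated wild-type ones. The groups did not overlap, at 0.33 ± 0.10 (adjusted p = 0.184), and ULK1 gave 0.44 ± 0.17 (adjusted p = 0.346) and PIK3R4 -0.99 ± 0.43 (adjusted p = 0.462).

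With 6-OHDA in both, 7 members were higher and 9 lower in alpha-synuclein than in wild-type cells, where 14.4% and 12.9% of all genes were called. The higher ones were NBR1 (0.85 ± 0.13, adjusted p = 9.64e-05), PIK3C3 (0.67 ± 0.10, adjusted p = 0.000126), TAX1BP1 (0.59 ± 0.08, adjusted p = 7.64e-05), ATG12 (0.52 ± 0.15, adjusted p = 0.0125), ATG5 (0.42 ± 0.11, adjusted p = 0.00512), CALCOCO2 (0.37 ± 0.11, adjusted p = 0.0125) and MAP1LC3B (0.25 ± 0.08, adjusted p = 0.0159). The lower ones included ULK1 (-0.68 ± 0.17, adjusted p = 0.00513), ATG9B (-0.55 ± 0.16, adjusted p = 0.0104), ATG4D (-0.53 ± 0.12, adjusted p = 0.00209) and SQSTM1 (-0.45 ± 0.10, adjusted p = 0.00196). MAP1LC3A, WDR45, ATG16L2, ATG101 and WIPI2 were the others, each lost in at least 6 alternatives, among them without treated wild-type replicate 1 (-0.55, -0.40, -0.34, -0.32 and -0.29 in that order). Without treated alpha-synuclein replicate 4, MAP1LC3B (0.18, adjusted p = 0.0566) and CALCOCO2 (0.21, adjusted p = 0.0704) lost their calls. In that setting 5 members were higher and 8 lower, with 4057 calls over all genes in place of 4537. Without the 4 libraries under 3 M counts, ULK1 gave -0.53 (adjusted p = 0.126), and 6 were higher and 4 lower. Calls over all genes then numbered 3395 in place of 4537. Without treated wild-type replicate 1 the lower ones numbered 3, with ATG9B at -0.41 (adjusted p = 0.0956).

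Quercetin, a plant flavonol, and rutin, a glycoside of quercetin, were given to 6-OHDA-treated alpha-synuclein cells to test for protection, per the study's design. Both comparisons share the 4 libraries without a flavonoid. No member was called by edgeR's quasi-likelihood test with either: 0 of 43 with quercetin, where 2.53% of all genes were called, and 0 of 43 with rutin, where 0% were. Unadjusted p-values under 0.05 by that test were found for 6 members with quercetin and 3 with rutin, beside 16.9% and 10.8% of all tested genes. The 95% interval of the log2 fold change stayed within 2-fold in both directions for 40 members with quercetin and for 39 with rutin. Changes of 2-fold lay inside the interval for FUNDC1 and ATG4C with both compounds, for PIK3R4 with quercetin, and for EPG5 and TBK1 with rutin.

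SQSTM1 had 712, 681 and 618 CPM with quercetin and 671, 701 and 663 CPM with rutin, against 671, 596, 606 and 427 CPM in 6-OHDA alone. The groups overlapped, at 0.22 ± 0.11 (adjusted p = 0.285) with quercetin and 0.24 ± 0.11 (adjusted p = 0.408) with rutin. GABARAPL1 had 73.1, 65.2 and 51.9 CPM with quercetin and 69.7, 78.8 and 83.6 CPM with rutin, against 82.9, 68.2, 74.7 and 50.1 CPM in 6-OHDA alone. These ranges overlapped too. TBK1 had 5.91, 7.65 and 5.82 CPM with quercetin and 9.90, 6.11 and 8.40 CPM with rutin, against 7.31, 4.67, 4.70 and 4.65 CPM in 6-OHDA alone; rutin gave 0.60 ± 0.25 (adjusted p = 0.393).

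The member nearest to a call with quercetin was NBR1, with 69.7, 80.2 and 76.1 CPM, against 83.4, 103.4, 92.6 and 119.8 CPM in 6-OHDA alone. Its groups did not overlap, at -0.41 ± 0.13 (adjusted p = 0.0927). WDR45 had 22.5, 27.9 and 21.2 CPM with quercetin, against 32.6, 31.6, 32.7 and 32.2 CPM in 6-OHDA alone (-0.43 ± 0.14, adjusted p = 0.0968). CALCOCO2 gave -0.33 ± 0.11 (adjusted p = 0.117) with quercetin. DESeq2 called these 3 lower with quercetin (NBR1 -0.40, adjusted p = 0.0274; WDR45 -0.42, adjusted p = 0.0404; CALCOCO2 -0.32, adjusted p = 0.0378), among 969 genes it called, and limma-voom called 0 members. With rutin OPTN was nearest, at 46.2, 46.9 and 34.6 CPM, against 54.3, 45.9, 58.3 and 85.2 CPM in 6-OHDA alone (-0.52 ± 0.16, adjusted p = 0.209). DESeq2 called it lower (-0.53, adjusted p = 0.0288), among 285 genes, and limma-voom called no gene with rutin. In 6-OHDA alone, replicate 4 was the highest library for NBR1, CALCOCO2 and OPTN, though not for WDR45. With that library left out, edgeR called 84 genes with quercetin in place of 420, and 0 members with either flavonoid. The DESeq2 calls were not tried without it.

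Between the compounds, which differ by the sugar that rutin carries, 0 members were called, where 0.00602% of all genes were. An unadjusted p under 0.05 was found for 4 members and for 8.92% of all tested genes. ATG16L1, the membrane-anchoring partner of ATG5 and ATG12, had 26.6, 21.9 and 21.2 CPM with quercetin, against 13.8, 17.0 and 8.40 CPM with rutin. The groups did not overlap, at 0.76 ± 0.20 (adjusted p = 0.203). The others were TAX1BP1 (-0.22 ± 0.09, adjusted p = 0.468), AMBRA1 (0.23 ± 0.08, adjusted p = 0.34) and ATG12 (-0.43 ± 0.16, adjusted p = 0.404). DESeq2 called 0 members between the compounds, whereas limma-voom called these 4 (ATG16L1 0.73, adjusted p = 0.0181). Intervals stayed within 2-fold for 39 of the 43 members, the widest reaching -2.34 for FUNDC1 and 1.28 for PIK3R4. The sources used here do not say whether both compounds were given at the same dose and time.

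**Figure D4:**
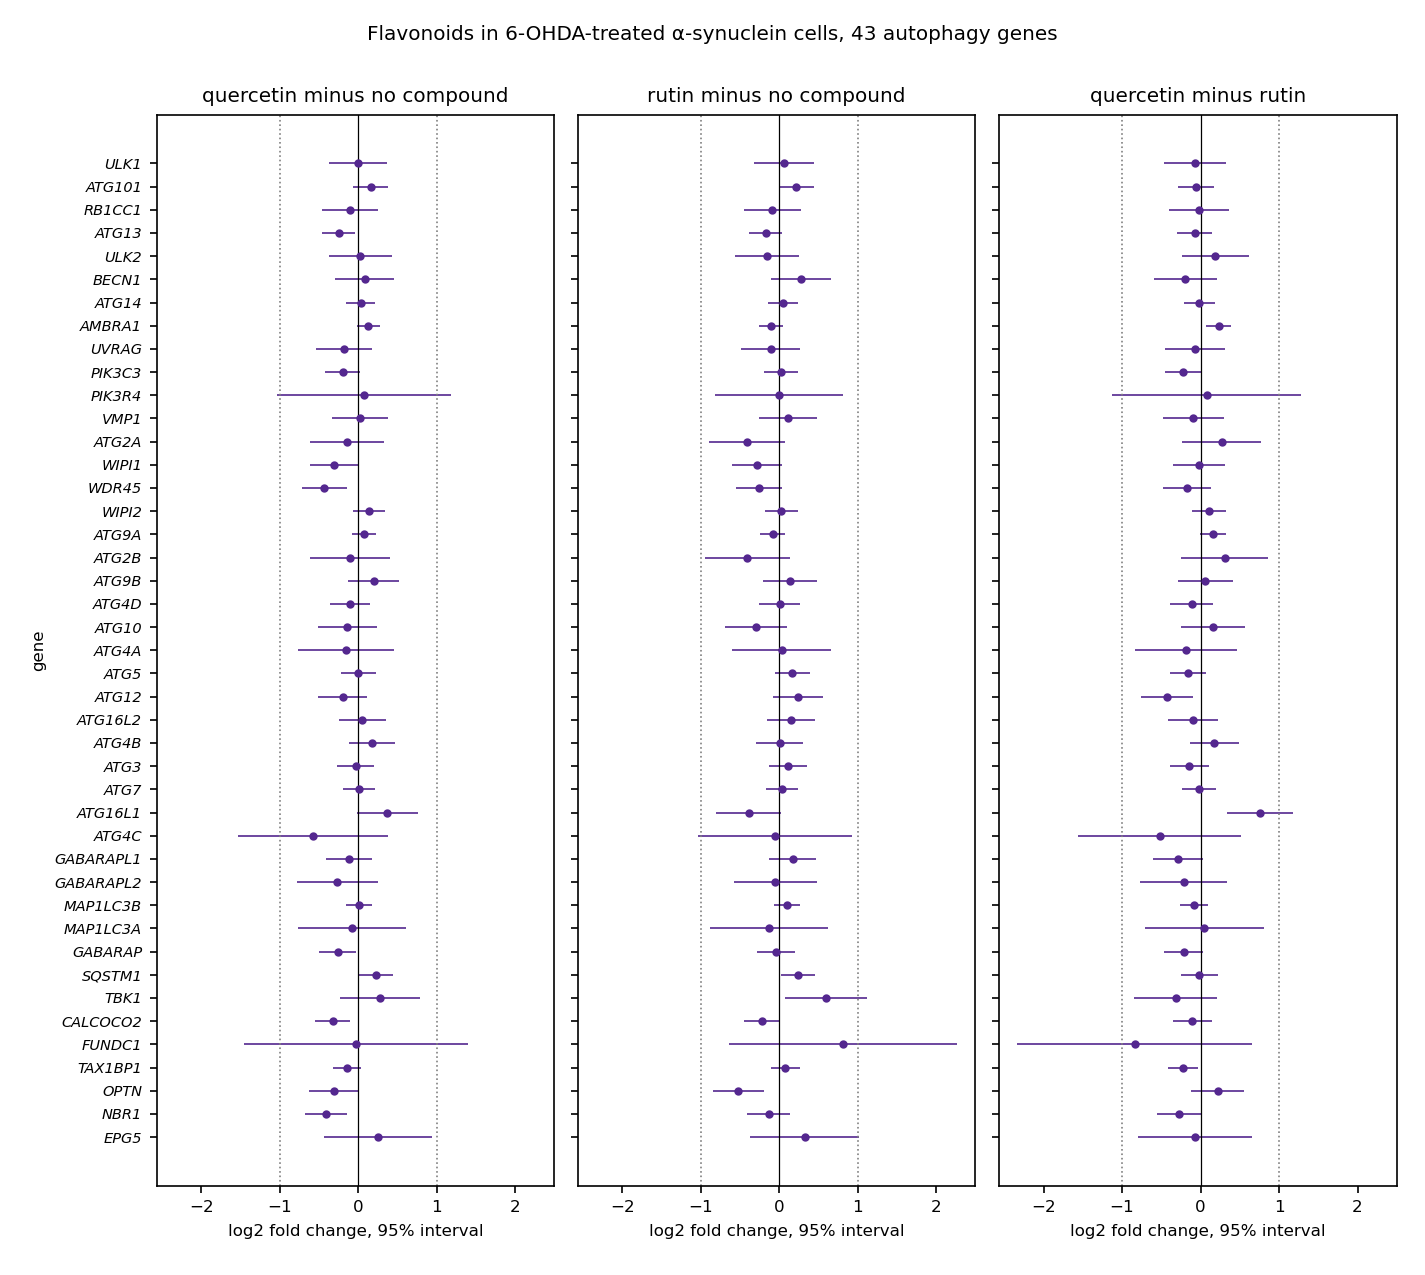
Log2 fold change (points) and 95% interval (lines) of each of the 43 members for quercetin and rutin against 6-OHDA alone and for quercetin against rutin, all in alpha-synuclein cells with 6-OHDA; dotted lines mark 2-fold. Most intervals hold 0, that of FUNDC1 is the widest, and ATG16L1 stands at 0.76 for quercetin against rutin.

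The genes around the machinery were described by 5 lists of pathway neighbours, counted under TMM scaling only and read beside the 22.9% higher and 24.2% lower of all tested genes in alpha-synuclein cells and the 25.8% and 26.2% in wild-type cells. Of 28 tested genes for mTORC1 and nutrient sensing, 7 rose and 9 fell with 6-OHDA in alpha-synuclein cells, and 9 rose and 9 fell in wild-type cells. DDIT4, which restrains mTORC1 under stress, rose by 2.19 in alpha-synuclein and by 3.04 in wild-type cells (log2), and RHEB, the GTPase that activates mTORC1, rose by 1.36 and 1.03. MTOR itself fell by 0.65 in alpha-synuclein and by 0.73 in wild-type cells.

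Of 25 TFEB-family and lysosome genes, 7 rose and 3 fell in alpha-synuclein cells, and 12 rose and 5 fell in wild-type cells. TFEB rose by 1.56 ± 0.35 (adjusted p = 0.000941) in alpha-synuclein and by 1.17 ± 0.37 (adjusted p = 0.0102) in wild-type cells. CTSD, the lysosomal protease cathepsin D, rose by 1.49 in alpha-synuclein and by 1.83 in wild-type cells, and CTSB, cathepsin B, fell by 0.93 and 0.79. Of the 17 genes of the lysosomal proton pump, 6 rose and 3 fell in alpha-synuclein cells, and 9 rose and 4 fell in wild-type cells. With quercetin CTSL (-0.82, adjusted p = 0.0273), PSAP (-0.82, adjusted p = 0.0361) and the pump gene ATP6V0A1 (-0.29, adjusted p = 0.0131) were called lower by edgeR's quasi-likelihood test. So were 1.97% of all tested genes. Without treated alpha-synuclein replicate 4, quercetin gave 84 calls over all genes in place of 420. The calls of CTSL, PSAP and ATP6V0A1 were not tried in the alternatives.

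In autophagosome-lysosome fusion, 1 of 14 genes rose and 8 fell (7.14% and 57.1%) in alpha-synuclein cells, where 22.9% and 24.2% of all tested genes did. In wild-type cells 2 rose and 6 fell (14.3% and 42.9%), where 25.8% and 26.2% of all tested genes did. The medians of this list, -0.32 and -0.17, are of the order of the shift that total-count scaling makes. VPS39, a subunit of the HOPS tether, fell by 0.49 in alpha-synuclein and by 0.59 in wild-type cells, and STX7, a late-endosomal SNARE, fell by 0.62 and 0.90. Of 20 mitophagy and ER-phagy receptors, 5 rose and 8 fell in alpha-synuclein cells, and 4 rose and 8 fell in wild-type cells. BNIP3, a hypoxia-induced mitophagy receptor, rose by 0.50 in alpha-synuclein and by 0.74 in wild-type cells, and NIPSNAP1 fell by 1.07 and 0.90. CALCOCO1, an ER-phagy receptor, was called lower with quercetin by edgeR's quasi-likelihood test (-0.38, adjusted p = 0.0131), a call likewise not tried in the alternatives. Median log2 fold changes of the 5 lists ran from -0.32 for fusion to 0.12 for the proton pump in alpha-synuclein cells, and from -0.17 for fusion to 0.39 for the proton pump in wild-type cells.

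**Figure D5:**
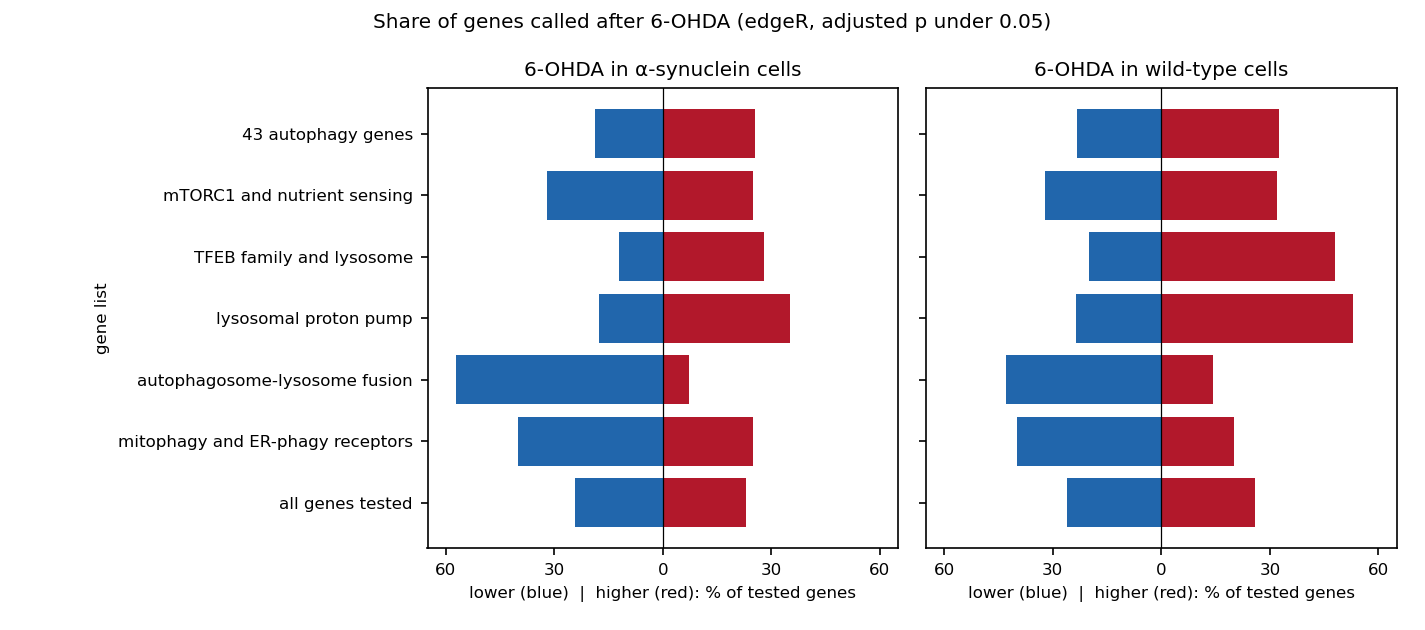
Share of tested genes called higher (red, to the right) and lower (blue, to the left) with 6-OHDA, in percent, for the 43 members, the 5 pathway lists and all tested genes, in alpha-synuclein and wild-type cells. Of the fusion genes 57.1% were called lower in alpha-synuclein and 42.9% in wild-type cells, and of the proton pump genes 35.3% and 52.9% were called higher, beside 24.2% and 26.2% lower and 22.9% and 25.8% higher of all tested genes.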

How the data were processed

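RNA was measured in 22 libraries; the deposited values were estimated counts per gene, whole numbers not normalised by the authors. Per the submitters' processing notes, Trimmomatic 0.38, kallisto 0.46.2, GRCh38 and hg38 were used, with no role named; the sources used here do not give strand use or the annotation release. Reads are divided among similar transcripts, so near copies and overlapping genes are uncertain: exons of 18 members overlap a gene on the other strand and of 3 a gene on the same strand.

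Each column was matched to a sample by name, and groups came from titles. Rounded counts were analysed in R 4.3.3 with edgeR 4.0.16: filterByExpr (minimum count 10), TMM, glmQLFit and glmQLFTest on 6 group means over all 22 libraries, Benjamini-Hochberg over 16601 genes, called at an adjusted p under 0.05. SEs and 95% intervals came from the fold change and its F. Positions and exon lengths came from GENCODE 29 (GRCh38), and start windows from RefSeq. The fit was tested on simulated data. Same-numbered replicates did not deviate together (correlations -0.138 to 0.0633), so no block was used. No floor or interval covers more than counting error or the spread among libraries. Alternatives used DESeq2 1.42.0, limma 3.58.1, other scalings, filters and sample sets.

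Members and lists were chosen with earlier results of these data known. Members with a call of at least 1 on the log2 scale in any of 8 comparisons, at most 16, and up to 3 called members with the smallest adjusted p per compound or interaction comparison, were given in every library; others were given so after their values were seen. Of each pathway list up to 4 genes were eligible per comparison, and TFEB was added after its values were seen. SESN2, MUL1, SOX2, NES and TMEM55B were not analysed here. The level of the overexpressed gene is not reported here.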

Additional observations from a re-analysis of the deposited data

Results flagged for a closer look

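A library stood far from the other 3 of its group, by Dixon's test, in 13 of 172 groups of 4 libraries over all members (7.56%), where chance gives about 5%. In treated alpha-synuclein cells replicate 1 was highest for TBK1 (7.31 CPM) and GABARAPL2 (17.8 CPM), replicate 4 was highest for MAP1LC3B (425 CPM), and replicate 2 was lowest for ATG16L2 (7.90 CPM). In untreated alpha-synuclein cells SQSTM1 was highest in replicate 1 (150.3 CPM) and NBR1 in replicate 2 (132 CPM). In treated wild-type cells replicate 4 was lowest for ATG4D (43.8 CPM) and highest for WDR45 (50.7 CPM) and ATG4A (20.9 CPM), and replicate 3 was lowest for WIPI1 (38.6 CPM). In untreated wild-type cells replicate 4 was lowest for ATG9B (21.7 CPM) and highest for ATG14 (67.9 CPM), and replicate 1 was highest for EPG5 (118 CPM).

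The effect of 6-OHDA differed between alpha-synuclein and wild-type cells, by the interaction term of edgeR's quasi-likelihood test, for 11 members. On the log2 scale the difference was 0.92 for NBR1, 0.62 for TAX1BP1, 0.58 for ATG12, 0.57 for PIK3C3 and 0.42 for ATG5. It was -1.12 for ULK1, -0.77 for SQSTM1, -0.74 for ATG9B, -0.71 for ATG4D, -0.45 for WIPI2 and -0.42 for ATG101. These differences cannot be told apart from lane.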

How the results depend on the processing

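Of 70 calls of single members 38 held in every alternative tried and 32 were lost in at least 1; of 1241 alternative values 1059 kept direction and side of the threshold, 178 lost the call and 4 turned. The 4 that turned did so with total-count scaling in place of TMM: TAX1BP1 (0.0547), AMBRA1 (0.0191) and MAP1LC3B (0.0923) in wild-type cells and ATG9A (0.0423) in alpha-synuclein cells. That scaling gave 3 lower members with 6-OHDA in wild-type cells, and 18 higher and 4 lower in alpha-synuclein cells. On that scale the median log2 fold change of all tested genes was 0.35 in wild-type and 0.33 in alpha-synuclein cells. With TMM it was 0.07 and 0.05. Counts of members in this section stand without the share of all tested genes called in the same setting, unless given. DESeq2's Wald test called 3 members lower with quercetin, among 969 genes, and 1 with rutin, among 285 genes. Limma-voom called 11 negative interactions. With quercetin against rutin it called 2 members higher and 2 lower, among 799 genes. For alpha-synuclein under 6-OHDA, 4 members were lower with no filter, with only the groups compared (41 members tested) and without libraries under 3 M counts. Without untreated alpha-synuclein replicates 3 and 4, whose names hold several numbers, read here as barcodes, the interaction gave 3 positive and 3 negative members. With the replicate block it gave 3 positive members, and the block moved no other count by more than 1.5 times.

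Leaving out 1 replicate at a time gave 11 to 12 higher and 5 to 9 lower members with 6-OHDA in alpha-synuclein cells, lowest without untreated replicate 3 or treated replicate 3. In wild-type cells it gave 10 to 13 higher and 7 to 12 lower. Alpha-synuclein under 6-OHDA had 5 to 8 higher and 3 to 8 lower, with 3 lower without treated wild-type replicate 1 and 5 lower without treated wild-type replicate 2 or treated alpha-synuclein replicate 1 or 3. The interaction had 3 to 7 positive and 3 to 8 negative, with 3 negative without treated wild-type replicate 1 and 3 positive without untreated wild-type replicate 4, untreated alpha-synuclein replicate 1 or 3, or treated alpha-synuclein replicate 4. Quercetin gave 0 to 3 lower, with 3 without treated alpha-synuclein replicate 1; the remaining counts stayed at 0. Causes were not tested. Intervals reached beyond 2-fold for FUNDC1 and ATG4C with both flavonoids.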
